A study of Mus musculus with 12 samples.

Results

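The 45 genes described here are interferon-stimulated genes, out of 25514 genes in the count tables. They were taken by name from a list that was set with earlier results of these data known. Their RNA was counted in conditionally immortalized mouse proximal tubule (PT) cells, with 3 libraries for each of 4 groups and 12 in all. The groups were TβRII flox/flox PT cells (genotype H2ts6;Tgfbr2fl/fl) and TβRII-/- PT cells (genotype H2ts6;Tgfbr2-/-), each left in culture medium with serum (untreated) or given H2O2 in serum-free medium for 24 h. All 4 groups carry the Immorto-mouse transgene, a temperature-sensitive T antigen under the interferon-inducible H2-K1 promoter, and all were grown at 33°C with interferon gamma before the move to 37°C 5 days before the experiment, when the interferon was removed according to the methods. The methods also give a day of serum starvation before H2O2. The cells came from male mice, and TβRII, the type II receptor of TGF-β encoded by Tgfbr2, was deleted in culture with an adenovirus carrying Cre. Each genotype is 1 cell line, so the loss of TβRII cannot be told apart from anything else in which the 2 lines differ, nor H2O2 from the loss of serum. The labels number the replicates without saying that they were separate cultures, so p-values measure the spread between these libraries, which may be technical.

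Interferons are secreted alarm signals of viral infection. Type I interferons bind the receptor chains Ifnar1 and Ifnar2 and, through the kinases Jak1 and Tyk2, activate Stat2, which joins Irf9 in a complex that binds the interferon-stimulated response element (ISRE). Interferon gamma binds Ifngr1 and Ifngr2 and acts through the gamma-activated site (GAS). The genes switched on in this way degrade, sense or sequester viral RNA, tag proteins with the ubiquitin-like Isg15, or attack parasite vacuoles, and many are also transcribed at a low level in cells that have met no virus.

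To show a control sequence that many of these genes share, the stretches before the start sites of 7 members were taken from RefSeq promoter windows (GRCm38.p6). These windows run from 250 bases before to 50 bases after a start site. Only members with an ISRE core in the window could be printed. From these the 7 were chosen because their values differed between genotypes in opposite directions, as described below. Capitals mark the ISRE core, searched as GAAANNGAAA on either strand, which reads TTTCNNTTTC on the other strand. Ifit1 (chr19:34640765-34640833), Ifit3 (chr19:34583353-34583436) and Ifit3b (chr19:34607749-34607832) are on the plus strand, and Oas3 (chr5:120777705-120777754), Oas1a (chr5:120907526-120907565), Isg15 (chr4:156200855-156200916) and Irgm1 (chr11:48871421-48871470) on the minus strand. Each sequence is written 5′ to 3′ in the direction of transcription and ends before the start site that its window uses. That site belongs to 1 transcript and is not always the outer end of the gene: the stretches of Ifit3 and Ifit3b lie inside the genes as RefSeq bounds them, and that of Oas1a lies partly inside.
Ifit1: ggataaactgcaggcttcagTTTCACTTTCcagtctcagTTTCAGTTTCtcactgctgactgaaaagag
Ifit3: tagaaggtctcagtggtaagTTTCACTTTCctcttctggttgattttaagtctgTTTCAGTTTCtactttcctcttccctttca
Ifit3b: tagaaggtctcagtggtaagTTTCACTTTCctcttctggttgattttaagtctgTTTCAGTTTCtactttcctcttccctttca
Oas3: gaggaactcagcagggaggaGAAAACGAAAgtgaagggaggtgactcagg
Oas1a: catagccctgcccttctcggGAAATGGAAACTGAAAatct
Isg15: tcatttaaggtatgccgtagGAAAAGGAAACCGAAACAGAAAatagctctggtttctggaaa
Irgm1: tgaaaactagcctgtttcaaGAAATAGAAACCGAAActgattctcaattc
The stretches of Ifit3 and Ifit3b were identical over all 84 bases. In both, the first bases of the 2 cores lay 34 bases apart, whereas those of Ifit1 lay 19 bases apart. Isg15 held 3 overlapping cores, Oas1a and Irgm1 held 2 overlapping cores each, and Oas3 held 1. Windows were found for 35 of the 45 members, and 19 of the 35 (54.3%) held an ISRE core, against 3.99% of 27025 genes with a window. The windows of Oasl1, Ifit2, Cmpk2, Parp12 and Ifi47, which also differed between untreated genotypes, held no ISRE core. The GAS core, searched as TTCNNNGAA, was in 10 of the 35 members (28.6%) and in 9.55% of all genes. Both cores were in 6 members (17.1%) and in 0.614% of all genes. A match describes the letters of the window and does not show that a factor binds there.

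Tgfbr2, the targeted gene, had 9249, 8370.0 and 7563 in untreated TβRII flox/flox and 6782, 6675 and 6358 in untreated TβRII-/- libraries. After H2O2 it had 13275, 13918 and 13706 in TβRII flox/flox and 7221, 7311 and 7116 in TβRII-/- libraries. These counts cover the whole transcript, and the part of the gene removed by Cre is not given in the sources used here, so they do not check the genotype labels. The paper's methods state that the deletion was checked by immunoblotting and RNA sequencing. Of 17 leukocyte markers, 8, Cd3e and Adgre1 among them, were at 0 in every library, and Ptprc averaged at most 4.97 in a group. The summed leukocyte level ran from 151.6 to 162.2 normalized counts in TβRII flox/flox and from 228.9 to 292.3 in TβRII-/- libraries, most of it from Cd68, a lysosomal protein of macrophages, and without Cd68 from 6.46 to 24.7 over all libraries. Proximal tubule markers, nearly all of it Lrp2 and Aqp1, summed to between 22030 and 28010 in untreated TβRII flox/flox and between 15070 and 16090 in untreated TβRII-/- libraries, and to between 30900 and 33760 and between 15880 and 17260 after H2O2. All 7 of these markers that were tested were called by genotype under both conditions, 6 lower and 1 higher in TβRII-/- PT cells, and after H2O2 Aqp1 rose in TβRII flox/flox PT cells (1.04 as a log2 fold change). In the same list 4 of 15, Slc22a6 among them, were at 0 and Slc34a1 and Hnf4a averaged below 1. The endothelial sum, mostly Kdr, was 128 to 142 in untreated TβRII flox/flox and 474.4 to 587.7 in untreated TβRII-/- libraries, and 25.8 to 28.6 and 41.7 to 70.6 after H2O2. Kdr thus fell with H2O2 in both lines (log2 fold changes -2.57 and -3.41). The fibroblast sum was 55.9 to 69.4 and 16.5 to 29.3 in untreated, and 76.4 to 96.3 and 40.6 to 50.7 in treated TβRII flox/flox and TβRII-/- libraries. All 3 tested fibroblast markers were called by genotype under both conditions, 2 lower and 1 higher in TβRII-/- PT cells. The kidney epithelial sum was 25600 to 27900 in untreated TβRII flox/flox and 44750 to 47770 in untreated TβRII-/- libraries, and 27450 to 28660 and 46730 to 47510 after H2O2. Of its 9 markers, 6 were called higher and 0 lower in TβRII-/- PT cells under both conditions. Cdh1 and Epcam, of this list, averaged 1.8 and 0.371 in untreated TβRII flox/flox and 1111 and 664 in untreated TβRII-/- libraries. Markers of each of these lists thus moved with genotype, and Kdr and Aqp1 with H2O2. After H2O2, 1 further proximal tubule marker was called lower in TβRII flox/flox PT cells, and 1 of 3 tested fibroblast markers higher in TβRII-/- PT cells. Of 9 kidney epithelial markers, 1 was called after H2O2 in TβRII flox/flox and 3 in TβRII-/- PT cells. The part of these markers in the differences described below was not tested. In such bulk libraries fewer cells of a type and less RNA per cell cannot be told apart.

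Of the 45 members, 43 passed the filter on low counts and entered the test among 12971 genes. Oas2 and Mx1 did not, with at most 7 and 4 raw counts in any library. The members differed widely in level. Per 1000 bases of the transcript that stood for the gene, averaged over the 12 libraries, Ifitm2 had 2092 normalized counts, Ifit3b 1192, Bst2 994, Ifit3 915 and Ifit2 759.7. Isg15 had 67.9, Rsad2 16.8, Ifit1 14.7, Mx2 7.45 and Zbp1 3.37 on the same scale. Members of 1 family thus stood far apart in level, as Ifit3b and Ifit1 did. Besides Ifit3, Ifit3b and Oas1a, treated below, the share of 50-base stretches found in another gene was above 10% for Ifitm2 (31.5%), Herc6 (19.6%), Igtp (12.9%), Gbp7 (12.7%), Irf9 (11.5%) and Rtp4 (10.8%), and their counts are uncertain to that extent.

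**Figure D1:**
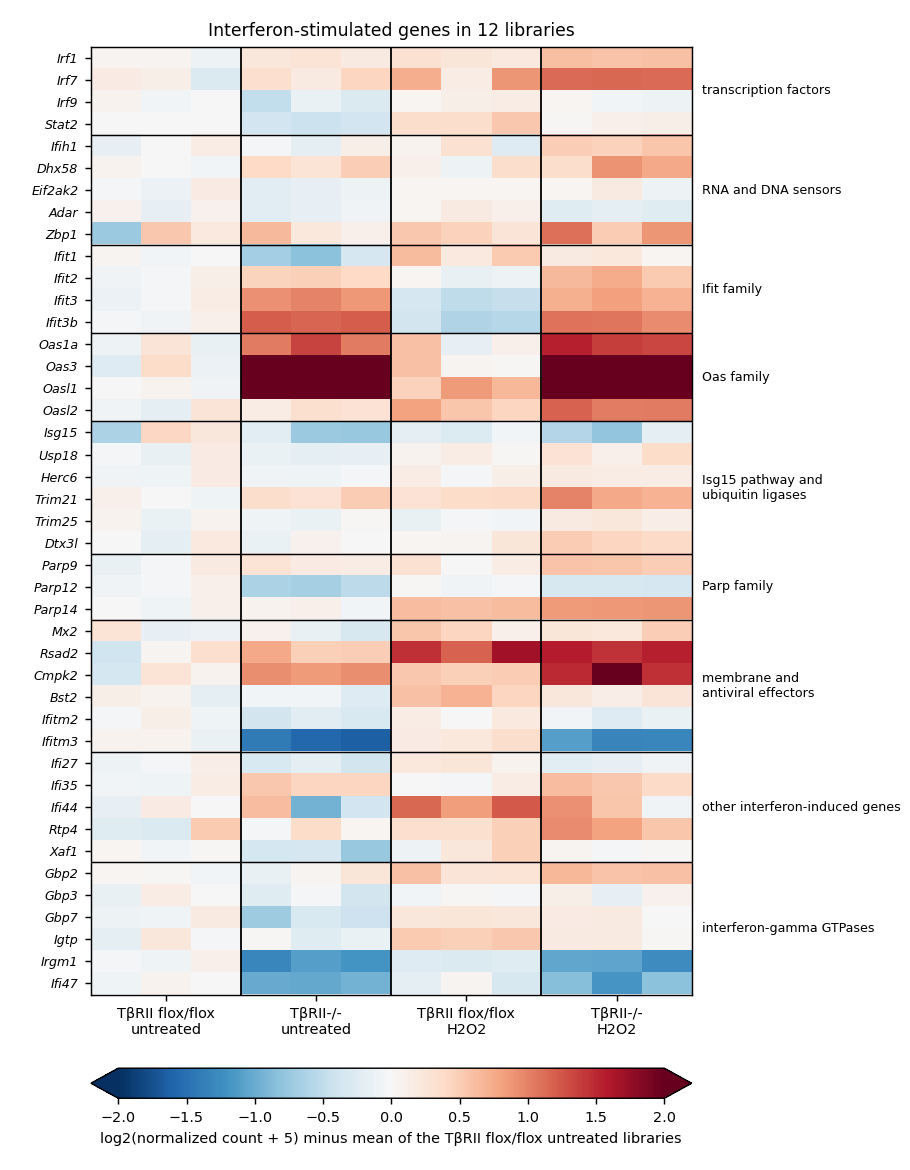
Each row is 1 of the 43 tested members, grouped by role, and each column 1 library. Colour gives log2(normalized count + 5) minus the mean of the 3 untreated TβRII flox/flox libraries, capped at -2 and 2. Oas3 and Oasl1 lie beyond 2 in all 6 TβRII-/- libraries, whereas Ifitm3, Irgm1 and Ifi47 were lower in each of them.

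The first comparison asked which of these genes differed between untreated TβRII-/- and TβRII flox/flox PT cells. A member was called when its adjusted p was below 0.05 (quasi-likelihood test in edgeR, Benjamini-Hochberg adjusted over all genes tested) and its fold change at least 1.5. In TβRII-/- PT cells 7 members were called higher and 6 lower, which is 30.2% of the 43 tested, against 28.0% of all genes (16.3% higher and 11.8% lower). With no limit on the fold, 12 members passed the test higher and 13 lower, 58.1% against 64.7% of all genes (33.3% higher and 31.4% lower). The median log2 fold change of the members was -0.07, beside 0.01 over all genes. Between the 2 groups 13 members were higher and 11 lower without any overlap of libraries, 55.8% against 65.3% of all genes (33.7% higher and 31.6% lower). These shares lay near or below those of all genes, and single members moved in opposite directions by large amounts.

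The largest differences were in the Oas family, whose enzymes make 2′-5′-linked oligoadenylates that activate RNase L. Oas3 had normalized counts of 19.99, 33.4 and 22.6 in the untreated TβRII flox/flox libraries and 233, 275 and 278 in the untreated TβRII-/- libraries. The 2 groups did not overlap, and the mean was 10.4-fold higher in TβRII-/- PT cells (as a log2 fold change, 3.37 ± 0.17 (SE), adjusted p = 1.5e-17). Oasl1, an Oas-like protein without synthetase activity that is known to repress translation of Irf7, had 10.5, 11.1 and 9.68 in TβRII flox/flox and 102, 136 and 110.1 in TβRII-/- libraries. It was 11-fold higher in TβRII-/- PT cells (as a log2 fold change, 3.46 ± 0.23 (SE), adjusted p = 1.6e-14). Oas1a had 42.1, 55.6 and 40.9 in TβRII flox/flox and 99.3, 124 and 99.6 in TβRII-/- libraries, again without overlap (log2 fold change 1.22 ± 0.19 (SE), adjusted p = 1.2e-06). Of the 50-base stretches of the Oas1a transcript, 56.8% also occur in its neighbour Oas1g, so reads of these genes may not be told apart. Oasl2 had 78.9, 72.3 and 100.02 in TβRII flox/flox and 92.03, 105 and 102 in TβRII-/- libraries, which overlapped, and did not pass the test (log2 fold change 0.25, adjusted p = 0.15). Oasl1 and Oasl2 lie side by side at chr5:114923143-114937911 and chr5:114896926-114912245 (GRCm38.p6).

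The Ifit family, tetratricopeptide proteins that bind viral RNA, was split. Its 4 members lie in 1 cluster on chromosome 19 (GRCm38.p6), in the order Ifit2 (chr19:34550550-34576534), Ifit3 (chr19:34583119-34588982), Ifit3b (chr19:34607530-34613403) and Ifit1 (chr19:34640889-34650009). Ifit3b had 1572, 1526 and 1735 normalized counts in untreated TβRII flox/flox libraries and 3725, 3623 and 3743 in untreated TβRII-/- libraries (log2 fold change 1.20 ± 0.07 (SE), adjusted p = 6.7e-17). Ifit3 had 1321, 1407 and 1589.6 in TβRII flox/flox and 2717, 2861 and 2612 in TβRII-/- libraries (log2 fold change 0.92 ± 0.07 (SE), adjusted p = 7.4e-14). Both were higher in every TβRII-/- library than in any TβRII flox/flox library. The transcripts of Ifit3 and Ifit3b are identical at 97.5% of aligned bases, and 46.9% of the 50-base stretches of Ifit3 also occur in Ifit3b, so the split of counts between them is uncertain. Ifit2, which shares no 50-base stretch with another gene, had 2730.1, 2771 and 3096 in TβRII flox/flox and 3907, 3989.6 and 3759 in TβRII-/- libraries (log2 fold change 0.44 ± 0.07 (SE), adjusted p = 6.3e-07), a rise below the 1.5-fold limit. Ifit1, which binds RNA with a foreign cap structure, went the other way, with 109, 101 and 104 in TβRII flox/flox and 63.8, 57.1 and 82.3 in TβRII-/- libraries (log2 fold change -0.63 ± 0.16 (SE), adjusted p = 0.0012). All 3 TβRII-/- libraries lay below all 3 TβRII flox/flox libraries for Ifit1, but without TβRII-/- replicate 2 its fold was under 1.5 (log2 fold change -0.52). The 2 ISRE cores of Ifit1 printed above have the same letters, in the same order, as those of Ifit3 and Ifit3b.

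**Figure D2:**
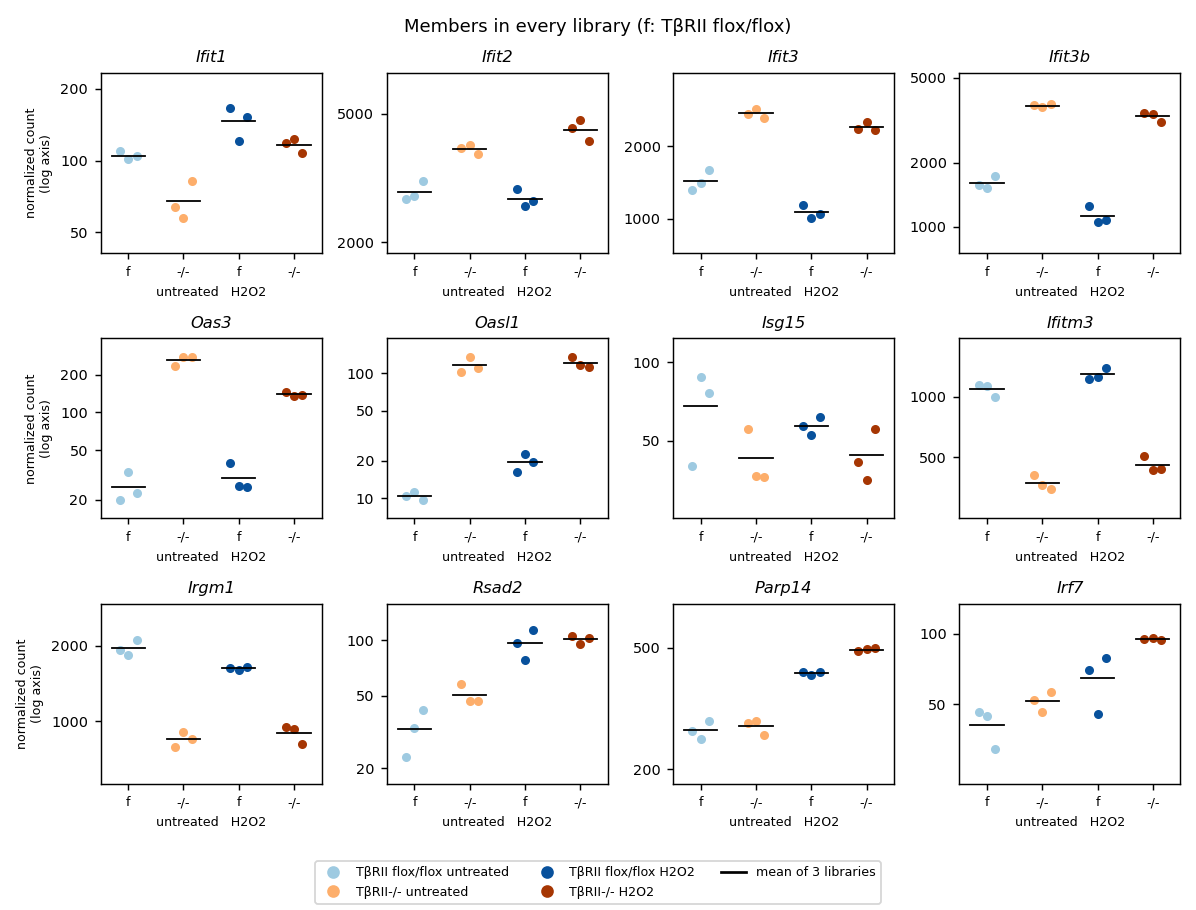
Normalized counts (log axis) of 12 members in every library, with points for the 12 libraries and a bar for the mean of the 3 libraries of a group; f stands for TβRII flox/flox and -/- for TβRII-/-. Ifit2, Ifit3 and Ifit3b were higher in TβRII-/- PT cells, whereas Ifit1, Ifitm3 and Irgm1 were lower; the groups of Isg15 overlapped.

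Among the 6 tested membrane and antiviral effectors, 2 were called higher and 1 lower in untreated TβRII-/- PT cells. That is 50%, against 28.0% of all genes (16.3% higher and 11.8% lower). Cmpk2, a mitochondrial nucleotide kinase, had 14.7, 25.6 and 21.5 in TβRII flox/flox and 42.9, 40.7 and 43.1 in TβRII-/- libraries (log2 fold change 1.04 ± 0.26 (SE), adjusted p = 0.00093). Its neighbour on chromosome 12, Rsad2, which makes the antiviral nucleotide ddhCTP, had 23.1, 33.4 and 41.9 in TβRII flox/flox and 57.5, 46.5 and 46.9 in TβRII-/- libraries (log2 fold change 0.61 ± 0.23 (SE), adjusted p = 0.018). The call on Rsad2 was lost without TβRII flox/flox replicate 1 (log2 fold change 0.41, adjusted p = 0.14) and without TβRII-/- replicate 1 (0.51, adjusted p = 0.078). Ifitm3, which blocks the fusion of viruses with endosomes, had 1143, 1136 and 991 in TβRII flox/flox and 406, 362 and 347 in TβRII-/- libraries, and was lower by the largest amount of all members (log2 fold change -1.55 ± 0.08 (SE), adjusted p = 2.2e-17). Ifitm2, its paralog, had 2109, 2357 and 2036 in TβRII flox/flox and 1679, 1873 and 1745 in TβRII-/- libraries, and passed the test below the fold limit (log2 fold change -0.29 ± 0.07 (SE), adjusted p = 0.00038). Bst2, the tether that holds budding virions on the cell surface, had a log2 fold change of -0.13 (adjusted p = 0.18) and Mx2, a dynamin-like GTPase, one of -0.19 (adjusted p = 0.65); neither passed.

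Among the interferon-gamma GTPases, which act on pathogen vacuoles, 2 of 6 were called lower and none higher, where 11.8% of all genes were called lower. Irgm1, a regulator of the other immunity-related GTPases, had 1921, 1832 and 2099 normalized counts in TβRII flox/flox and 789.5, 906 and 849 in TβRII-/- libraries, with no overlap (log2 fold change -1.20 ± 0.07 (SE), adjusted p = 2.2e-16). Ifi47, an effector of the same family, had means of 155 ± 9.25 and 75.1 ± 2.12 (SD, n = 3; log2 fold change -1.04, adjusted p = 1.9e-07). Igtp had 316, 423 and 351 in TβRII flox/flox and 368, 304 and 328 in TβRII-/- libraries, which overlapped (log2 fold change -0.12 ± 0.10 (SE), adjusted p = 0.27). Of the guanylate-binding proteins, which lie together on chromosome 3, Gbp7 passed the test below the fold limit (log2 fold change -0.48, adjusted p = 0.00059), and Gbp2 and Gbp3 did not pass (log2 fold changes 0.06 and -0.22). This role held no member that passed higher in untreated TβRII-/- PT cells, unlike the Oas family, which held no member that passed lower; the difference between the roles was not tested.

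The transcription factors of the pathway moved little. Stat2 had 823, 830.2 and 829 in untreated TβRII flox/flox and 632, 613 and 632 in untreated TβRII-/- libraries (log2 fold change -0.40 ± 0.07 (SE), adjusted p = 4.4e-06). Irf9, its DNA-binding partner, was also lower (log2 fold change -0.30, adjusted p = 0.0049), though not without TβRII-/- replicate 1. Irf1, a factor induced by interferon gamma, had 553, 554 and 499 in TβRII flox/flox and 625, 646 and 607 in TβRII-/- libraries and was higher (log2 fold change 0.23 ± 0.07 (SE), adjusted p = 0.0057), except without TβRII flox/flox replicate 3 (adjusted p = 0.052). Irf7, the factor that amplifies type I interferon, did not pass (log2 fold change 0.33, adjusted p = 0.18). None of these 4 reached the 1.5-fold limit.

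Of the sensors of foreign nucleic acid, 1 of 5 (20%) passed between untreated genotypes, against 64.7% of all genes (33.3% higher and 31.4% lower). The RNA-editing enzyme Adar had 1494, 1262 and 1496 in TβRII flox/flox and 1216, 1264 and 1338 in TβRII-/- libraries (log2 fold change -0.15 ± 0.07 (SE), adjusted p = 0.041); DESeq2 did not call it, and 8 of 13 alternatives lost it. Eif2ak2, the double-stranded RNA kinase PKR, had 913, 868 and 1052 in TβRII flox/flox and 815, 839 and 879.7 in TβRII-/- libraries (log2 fold change -0.16, adjusted p = 0.057). Ifih1 (MDA5), Dhx58 (LGP2) and Zbp1 had log2 fold changes of -0.04, 0.44 and 0.38 and did not pass.

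Isg15 itself, the ubiquitin-like modifier, had 39.98, 87.9 and 76.4 normalized counts in TβRII flox/flox and 55.4, 36.8 and 36.4 in TβRII-/- libraries. The groups overlapped, and the call (log2 fold change -0.67 ± 0.24 (SE), adjusted p = 0.016) was lost in 4 of the 6 fits that leave out 1 library, whose log2 fold changes ran from -0.95 to -0.45 and adjusted p up to 0.14 without TβRII flox/flox replicate 2. The other genes of the Isg15 pathway and the ubiquitin ligases moved less. Trim25, the ligase that activates the sensor Rigi, had 1091, 948 and 1096 in TβRII flox/flox and 983, 952 and 1058 in TβRII-/- libraries (log2 fold change -0.07, adjusted p = 0.39). Herc6, the mouse ligase for Isg15, had 936, 926 and 1100.2 in TβRII flox/flox and 938, 927 and 957 in TβRII-/- libraries (log2 fold change -0.07, adjusted p = 0.38). Trim21, an intracellular antibody receptor, passed (log2 fold change 0.40, adjusted p = 0.007), and Usp18, the Isg15 protease, and Dtx3l did not (log2 fold changes -0.18 and -0.02).

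Of the 3 Parp family members, ADP-ribosyltransferases, Parp12 had 1071, 1091 and 1206 in TβRII flox/flox and 724, 707 and 777 in TβRII-/- libraries and was called lower (log2 fold change -0.61 ± 0.07 (SE), adjusted p = 1e-09), though its fold was under 1.5 without TβRII flox/flox replicate 3 (log2 fold change -0.56) or TβRII-/- replicate 2 (-0.58). Parp9, the partner of Dtx3l, had 492, 539.8 and 623 in TβRII flox/flox and 663, 618 and 609 in TβRII-/- libraries; it passed the main test (log2 fold change 0.19 ± 0.08 (SE), adjusted p = 0.044) but not DESeq2 or 5 further alternatives. The ends of Parp9 and Dtx3l overlap on chromosome 16, and the use of strand in counting is not given in the sources used here. Parp14 did not pass (log2 fold change 0.04, adjusted p = 0.7). Among the other interferon-induced genes, Ifi35 had 249, 243 and 287 in TβRII flox/flox and 378, 350.5 and 351 in TβRII-/- libraries and was higher (log2 fold change 0.47 ± 0.09 (SE), adjusted p = 5.5e-05). Ifi27, a mitochondrial protein, had 462, 489 and 547 in TβRII flox/flox and 404, 435 and 383 in TβRII-/- libraries and was lower (log2 fold change -0.29 ± 0.08 (SE), adjusted p = 0.0023). Xaf1, a partner of the apoptosis inhibitor XIAP, was lower as well (log2 fold change -0.51, adjusted p = 0.019), except without TβRII-/- replicate 3, whereas Ifi44 and Rtp4 did not pass (log2 fold changes -0.20 and 0.09).

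The second comparison set TβRII-/- against TβRII flox/flox PT cells after H2O2. Of the 43 members, 8 were called higher and 3 lower, 25.6% against 30.7% of all genes (17.3% higher and 13.4% lower). With no fold limit 20 passed higher and 11 lower, 72.1% against 66.4% of all genes (35.1% higher and 31.3% lower). Libraries of the genotypes did not overlap for 19 members that were higher and 12 that were lower, 72.1% against 71.0% of all genes (37.3% higher and 33.7% lower). The median log2 fold change was 0.18, beside 0.02 over all genes. The members called higher shared 6 genes with the untreated comparison (85.7% of its 7 and 75.0% of the 8 here), namely Cmpk2, Ifit3, Ifit3b, Oas1a, Oas3 and Oasl1. All 3 called lower here, Ifi47, Ifitm3 and Irgm1, were among the 6 called lower in untreated cells. These 2 comparisons use different libraries of the same 2 cell lines. The share of such repeated calls over all genes was not counted.

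After H2O2, Oas3 had 39.6, 25.8 and 25.2 in TβRII flox/flox and 145, 134 and 138 in TβRII-/- libraries (log2 fold change 2.19 ± 0.18 (SE), adjusted p = 2e-12). Oasl1 had 16.2, 22.7 and 19.5 in TβRII flox/flox and 134, 116 and 112 in TβRII-/- libraries (log2 fold change 2.63 ± 0.20 (SE), adjusted p = 3.9e-13). Both thus stood far apart between genotypes under either condition. Ifit3b had 1249, 1056 and 1083 in TβRII flox/flox and 3409, 3385 and 3107 in TβRII-/- libraries (log2 fold change 1.55 ± 0.07 (SE), adjusted p = 1.3e-19). Ifit3 had 1140.3, 1009 and 1043 and 2364, 2525 and 2338 (log2 fold change 1.18 ± 0.07 (SE), adjusted p = 2.3e-16). Ifit2 had 2928, 2591 and 2675 in TβRII flox/flox and 4507, 4765 and 4109.7 in TβRII-/- libraries and now exceeded the 1.5-fold limit (log2 fold change 0.71 ± 0.07 (SE), adjusted p = 3.2e-11). Of the Ifit family, only Ifit1 was lower, with 166, 121 and 152 in TβRII flox/flox and 119, 123 and 107 in TβRII-/- libraries; its groups overlapped, and it passed in the main fit (log2 fold change -0.33, adjusted p = 0.039) but not in 6 of 13 alternatives, DESeq2 among them.

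Ifitm3 after H2O2 had 1226, 1259 and 1394 in TβRII flox/flox and 505, 431 and 437 in TβRII-/- libraries (log2 fold change -1.50 ± 0.08 (SE), adjusted p = 1.7e-17). Irgm1 had 1625, 1599 and 1642 in TβRII flox/flox and 949.8, 931 and 809 in TβRII-/- libraries (log2 fold change -0.85 ± 0.07 (SE), adjusted p = 1e-12). Cmpk2 had 31.5, 29.96 and 30.9 in TβRII flox/flox and 65.5, 95.1 and 64.6 in TβRII-/- libraries (log2 fold change 1.30 ± 0.22 (SE), adjusted p = 4.3e-06). For these 3 genes no library of a genotype reached the range of the other. Oas1a, with 71.02, 40.3 and 49.3 in TβRII flox/flox and 144, 127 and 123 in TβRII-/- libraries, behaved likewise (log2 fold change 1.29). Rsad2 had 97.4, 78.5 and 113 in TβRII flox/flox and 105, 95.9 and 103 in TβRII-/- libraries, which overlapped (log2 fold change 0.08, adjusted p = 0.7). Dhx58 was called higher (log2 fold change 0.63, adjusted p = 0.01), but not without TβRII flox/flox replicate 2 (adjusted p = 0.076) or TβRII-/- replicate 2 (adjusted p = 0.082). The members that passed below the fold limit after H2O2 included Ifih1 (0.46), Trim25 (0.26), Dtx3l (0.33), Parp9 (0.40) and Oasl2 (0.49), all higher, and Adar (-0.33), Stat2 (-0.34), Parp12 (-0.31) and Bst2 (-0.37), all lower, as log2 fold changes. Ifih1 did not pass without TβRII flox/flox replicate 3 (log2 fold change 0.29, adjusted p = 0.063).

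**Figure D3:**
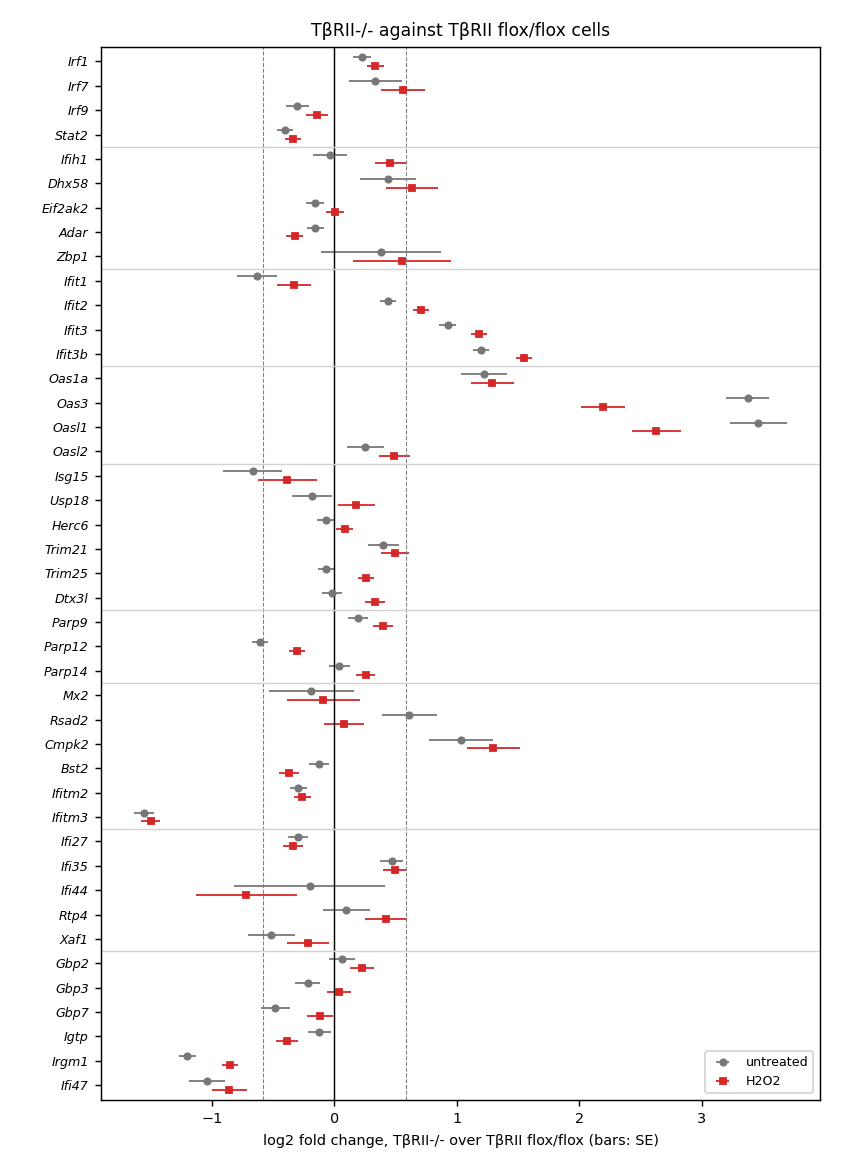
Log2 fold change of TβRII-/- over TβRII flox/flox PT cells with its SE for the 43 tested members, in order of role; grey circles are untreated cells, red squares cells given H2O2, and dashed lines mark a 1.5-fold change. Oasl1 and Oas3 lie far to the right of the rest of the list under both conditions, whereas Ifitm3, Irgm1 and Ifi47 lie to the left.

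The third comparison asked what H2O2 in serum-free medium did to these genes in TβRII flox/flox PT cells. Of the 43 members, 6 were called higher and 0 lower, 14.0% against 8.24% of all genes (5.68% higher and 2.56% lower). With no fold limit 14 passed higher and 3 lower, 39.5% against 41.6% of all genes (21.0% higher and 20.5% lower). Treated and untreated libraries did not overlap for 15 members that were higher and 3 that were lower, 41.9% against 47.4% of all genes (24.1% higher and 23.3% lower). The median log2 fold change was 0.22, beside 0.01 over all genes. In TβRII-/- PT cells, the fourth comparison, 8 were called higher and 1 lower, 20.9% against 8.33% of all genes (4.56% higher and 3.76% lower). With no fold limit 26 passed higher and 3 lower, 67.4% against 39.6% of all genes (20.5% higher and 19.1% lower). There the libraries did not overlap for 25 members that were higher and 3 that were lower, 65.1% against 52.1% of all genes (27.3% higher and 24.7% lower), and the median was 0.32, beside 0.02 over all genes. Irf7, Oasl2, Parp14 and Rsad2 were called higher in both lines, 66.7% of the 6 called in TβRII flox/flox and 50% of the 8 in TβRII-/- PT cells. The share of calls common to both lines over all genes was not counted either.

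Of the members called in both lines, Rsad2 rose the most. It went from 23.1, 33.4 and 41.9 normalized counts to 97.4, 78.5 and 113 in TβRII flox/flox PT cells (as a log2 fold change, 1.55 ± 0.20 (SE), adjusted p = 3.4e-07). It went from 57.5, 46.5 and 46.9 to 105, 95.9 and 103 in TβRII-/- PT cells (as a log2 fold change, 1.01 ± 0.18 (SE), adjusted p = 3.8e-05). No treated library of either line overlapped its untreated ones. Irf7 went from 46.3, 44.5 and 32.3 to 70.00, 45.4 and 79.1 in TβRII flox/flox PT cells (as a log2 fold change, 0.65 ± 0.21 (SE), adjusted p = 0.013), where treated replicate 2 fell among the untreated values and the call was lost without untreated replicate 3 (adjusted p = 0.084) or treated replicate 3 (adjusted p = 0.091). The TβRII-/- libraries went from 52.3, 46.5 and 56.5 to 95.1, 95.9 and 94.5, without overlap (log2 fold change 0.88 ± 0.18 (SE), adjusted p = 0.00029).

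Parp14, which restrains RNA viruses and modifies Stat signalling, went from 266, 252 and 288 to 415, 407 and 417 in TβRII flox/flox PT cells (as a log2 fold change, 0.62 ± 0.08 (SE), adjusted p = 5.1e-07). The TβRII-/- libraries went from 282, 288 and 259 to 486, 495 and 497 (log2 fold change 0.83 ± 0.08 (SE), adjusted p = 7.1e-10). Oasl2, an Oas-like protein, went from 78.9, 72.3 and 100.02 to 148, 124 and 113 in TβRII flox/flox PT cells (as a log2 fold change, 0.62 ± 0.15 (SE), adjusted p = 0.0011). The TβRII-/- libraries went from 92.03, 105 and 102 to 194, 175 and 175 (log2 fold change 0.86 ± 0.13 (SE), adjusted p = 4.7e-06). Both genes were higher in every treated library than in any untreated library of the same line. In TβRII flox/flox PT cells their folds were under 1.5 without untreated replicate 2 (log2 fold changes 0.58 for Parp14 and 0.53 for Oasl2), and that of Oasl2 also without treated replicate 1 (0.51).

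Ifi44 and Oasl1 were called higher in TβRII flox/flox PT cells alone. Ifi44 counts were low, going from 5.26, 7.79 and 6.45 to 20.3, 15.5 and 21.8 (log2 fold change 1.54 ± 0.48 (SE), adjusted p = 0.011), and in TβRII-/- PT cells they went from 12.5, 0.968 and 3.83 to 16.6, 11.8 and 5.97 (log2 fold change 1.03, adjusted p = 0.12). Oasl1 went from 10.5, 11.1 and 9.68 to 16.2, 22.7 and 19.5 in TβRII flox/flox PT cells (as a log2 fold change, 0.89 ± 0.33 (SE), adjusted p = 0.03), a call that 5 of the 6 fits without 1 library lost, with adjusted p up to 0.12 without treated replicate 2. Oasl1 in TβRII-/- PT cells started at a higher level and had 102, 136 and 110.1 before and 134, 116 and 112 after H2O2 (log2 fold change 0.06, adjusted p = 0.79). For neither gene did the effect of H2O2 differ between the lines by the test of the difference (adjusted p = 0.74 for Ifi44 and 0.15 for Oasl1).

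In TβRII-/- PT cells, Cmpk2, Gbp7, Ifit1 and Rtp4 were also called higher. Cmpk2 went from 42.9, 40.7 and 43.1 to 65.5, 95.1 and 64.6 (log2 fold change 0.84 ± 0.20 (SE), adjusted p = 0.0013), and in TβRII flox/flox PT cells from 14.7, 25.6 and 21.5 to 31.5, 29.96 and 30.9 (log2 fold change 0.58, adjusted p = 0.096). Ifit1 rose in both lines, from 63.8, 57.1 and 82.3 to 119, 123 and 107 in TβRII-/- (log2 fold change 0.78 ± 0.16 (SE), adjusted p = 0.00017) and from 109, 101 and 104 to 166, 121 and 152 in TβRII flox/flox PT cells (as a log2 fold change, 0.48 ± 0.15 (SE), adjusted p = 0.0087). In TβRII flox/flox PT cells it passed except without treated replicate 1 (adjusted p = 0.063). Gbp7 and Rtp4, a chaperone for taste and opioid receptors that also binds viral RNA, had log2 fold changes of 0.60 and 0.67 in TβRII-/- and 0.23 and 0.34 in TβRII flox/flox PT cells. The fold of Rtp4 in TβRII-/- PT cells was under 1.5 without treated replicate 1 (log2 fold change 0.58), and that of Gbp7 in 5 of 13 alternatives, with 0.49 without untreated replicate 1, 0.58 without treated replicate 1 and 0.56 without treated replicate 2.

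Ifit3 and Ifit3b went against Ifit1. In TβRII flox/flox PT cells Ifit3b fell from 1572, 1526 and 1735 to 1249, 1056 and 1083 (log2 fold change -0.51 ± 0.07 (SE), adjusted p = 4.1e-07) and Ifit3 from 1321, 1407 and 1589.6 to 1140.3, 1009 and 1043 (log2 fold change -0.43 ± 0.07 (SE), adjusted p = 7e-06), both without overlap and below the 1.5-fold limit. In TβRII-/- PT cells the log2 fold changes were -0.16 (adjusted p = 0.038, lost in 7 of 13 alternatives) and -0.18 (adjusted p = 0.025, lost in 3 of 13). Ifit2 had 2730.1, 2771 and 3096 before and 2928, 2591 and 2675 after H2O2 in TβRII flox/flox PT cells, which overlapped (log2 fold change -0.07, adjusted p = 0.42). In TβRII-/- PT cells Ifit2 rose from 3907, 3989.6 and 3759 to 4507, 4765 and 4109.7, without overlap (log2 fold change 0.20, adjusted p = 0.014, lost in 3 of 13 alternatives). Within the cluster on chromosome 19, the directions of Ifit1 and of Ifit3 and Ifit3b were therefore opposite both between genotypes and after H2O2. Oas3 was the 1 member called lower after H2O2, from 233, 275 and 278 to 145, 134 and 138 in TβRII-/- PT cells (as a log2 fold change, -0.91 ± 0.13 (SE), adjusted p = 6.6e-07), whereas in TβRII flox/flox PT cells it had 19.99, 33.4 and 22.6 before and 39.6, 25.8 and 25.2 after, which overlapped (log2 fold change 0.27, adjusted p = 0.42).

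Many further members rose by less than 1.5-fold. Stat2 went from 823, 830.2 and 829 to 1056, 1062 and 1201 in TβRII flox/flox PT cells (as a log2 fold change, 0.42 ± 0.07 (SE), adjusted p = 5.1e-06) and from 632, 613 and 632 to 839, 890.0 and 899 in TβRII-/- PT cells (as a log2 fold change, 0.49 ± 0.07 (SE), adjusted p = 6.3e-07). Irf1 went from 553, 554 and 499 to 665, 632 and 615 in TβRII flox/flox (log2 fold change 0.25) and from 625, 646 and 607 to 811, 800.4 and 802 in TβRII-/- PT cells (as a log2 fold change, 0.36). Treated and untreated libraries did not overlap for either factor in either line. Igtp reached 519, 505 and 527 in treated TβRII flox/flox (log2 fold change 0.51 ± 0.09 (SE), adjusted p = 4e-05) and 409, 407 and 367 in treated TβRII-/- libraries (log2 fold change 0.25, adjusted p = 0.035). Bst2 had log2 fold changes of 0.57 in TβRII flox/flox and 0.32 in TβRII-/- PT cells, Gbp2 of 0.39 and 0.55, and Ifitm3 of 0.25 and 0.30, all past the test, Ifitm3 in TβRII flox/flox not without untreated or treated replicate 3 and in TβRII-/- not without treated replicate 1.

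By role, all 4 transcription factors passed higher in TβRII-/- PT cells and 3 of 4 in TβRII flox/flox PT cells, where 20.5% and 21.0% of all genes passed higher. The pass of Irf9 in TβRII-/- PT cells was lost without untreated or treated replicate 1. All 3 Parp family members passed higher in TβRII-/- PT cells and 1 of 3 in TβRII flox/flox PT cells. Of the 6 genes of the Isg15 pathway and the ubiquitin ligases, 5 passed higher in TβRII-/- and 1 in TβRII flox/flox PT cells. Of these passes, that of Usp18 in TβRII-/- PT cells was lost in 5 of 13 alternatives, and that of Trim21, the 1 pass in TβRII flox/flox PT cells, in the 4 fits without untreated or treated replicate 2 or 3. Isg15 passed in neither, with 56.8, 52.7 and 61.9 in treated TβRII flox/flox and 41.5, 35.4 and 55.7 in treated TβRII-/- libraries. Parp9 rose from 663, 618 and 609 to 819, 813 and 778 in TβRII-/- PT cells (as a log2 fold change, 0.35 ± 0.08 (SE), adjusted p = 0.00064), and reached 677, 545 and 609.7 in TβRII flox/flox PT cells (as a log2 fold change, 0.15, adjusted p = 0.16). Herc6 rose to 1118, 1095 and 1092 in TβRII-/- PT cells (as a log2 fold change, 0.23, adjusted p = 0.0074) and had 1089, 968 and 1064 in treated TβRII flox/flox libraries (log2 fold change 0.07, adjusted p = 0.4). A pass in 1 line and not in the other is not a difference between lines, which is tested next.

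Several abundant members changed little after H2O2. Adar had 1445, 1595 and 1515 in treated TβRII flox/flox and 1200.0, 1241 and 1191 in treated TβRII-/- libraries (log2 fold changes 0.10 and -0.07). Ifitm2 had 2401, 2144 and 2477 and 2083, 1799.7 and 1972 (log2 fold changes 0.11 and 0.14). Ifi27 had 577, 592 and 526 and 426, 444 and 472 (log2 fold changes 0.18 and 0.14), and Ifi35 261, 251 and 288 and 399.7, 379.7 and 341 (log2 fold changes 0.03 and 0.06). Eif2ak2 had 967, 967 and 963 and 963, 1065 and 878 (log2 fold changes 0.03 and 0.20), of which the second passed (adjusted p = 0.029) but was lost in 5 of 13 alternatives. Adar, Ifitm2, Ifi27, Ifi35, Gbp3, Ifi47, Isg15, Oas1a and Dhx58 passed in neither line. Mx2 and Zbp1, with low counts, also passed in neither, though their values were larger and less certain. In TβRII flox/flox and TβRII-/- PT cells the log2 fold changes were 0.47 and 0.57 for Mx2 and 0.53 and 0.70 for Zbp1 (SE 0.32 to 0.49).

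**Figure D4:**
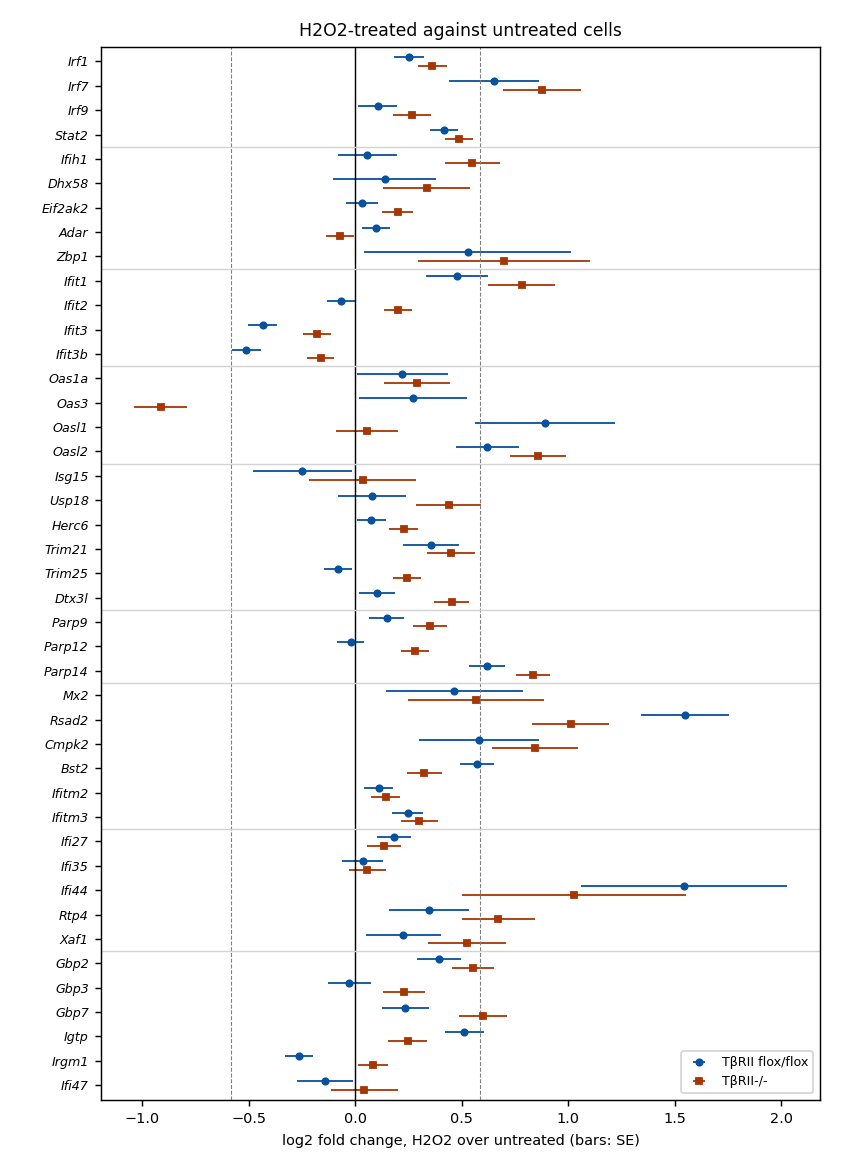
Log2 fold change of H2O2-treated over untreated PT cells with its SE for the 43 tested members, in order of role; blue circles are TβRII flox/flox and brown squares TβRII-/- PT cells, and dashed lines mark a 1.5-fold change. Rsad2 lies to the right in both lines, and Oas3 in TβRII-/- PT cells is the 1 value beyond the dashed line on the left.

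The interaction asked whether the effect of H2O2 differed between TβRII-/- and TβRII flox/flox PT cells. Here 5 members passed (adjusted p below 0.05, no fold limit), 4 with a higher and 1 with a lower value in TβRII-/- PT cells, 11.6% against 10.2% of all genes (3.90% higher and 6.28% lower). Oas3 had the largest difference, the effect in TβRII-/- minus that in TβRII flox/flox PT cells being -1.18 ± 0.28 (SE), adjusted p = 0.0062 on the log2 scale, and it passed in all 18 alternatives. The difference was 0.35 ± 0.09 (SE), adjusted p = 0.014 for Ifit3b, 0.35 ± 0.10 (SE), adjusted p = 0.018 for Irgm1, 0.33 ± 0.09 (SE), adjusted p = 0.024 for Trim25 and 0.30 ± 0.09 (SE), adjusted p = 0.03 for Parp12. Irgm1 fell in TβRII flox/flox PT cells (as a log2 fold change, -0.27, adjusted p = 0.0015) and not in TβRII-/- PT cells (0.08, adjusted p = 0.38). Trim25 had 936, 1023 and 1006 in treated TβRII flox/flox libraries (log2 fold change -0.08) and 1179, 1221 and 1143 in treated TβRII-/- libraries (0.24), and Parp12 had 1142, 1069 and 1107 (-0.02) and 895, 897 and 889 (0.28). These 4 calls were not stable. The count fell to 1, Oas3, without treated TβRII flox/flox replicate 3, to 3 without treated TβRII flox/flox replicate 2, and to 2 without untreated TβRII flox/flox replicate 3, untreated TβRII-/- replicate 1, or treated TβRII-/- replicate 1 or 2. Summing counts over the transcripts of a gene left 2, Oas3 and Oasl1, both negative.

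The genes that carry the interferon signal were taken from a list set beside the members. Of 21 interferon genes, 19, Ifnb1 and Ifng among them, had 0 counts in all 12 libraries, which allows up to 3 counts in libraries of 15870155 to 20857618 counts (counting error only). Ifnz and Ifne had at most 1 and 2 counts in a library. Of the 9 receptor chains and Jak kinases, all tested, 2 were called higher and 3 lower in untreated TβRII-/- PT cells, and 2 higher and 4 lower after H2O2, beside 28.0% of all genes (16.3% higher and 11.8% lower) and 30.7% (17.3% higher and 13.4% lower). Ifnar1 had 6128, 5886 and 5165 normalized counts in untreated TβRII flox/flox and 3336, 3176 and 3053 in untreated TβRII-/- libraries (log2 fold change -0.84 ± 0.06 (SE), adjusted p = 2e-13). Ifngr1 had 1684, 1735 and 1449.8 and 821, 906 and 762 (log2 fold change -0.97 ± 0.07 (SE), adjusted p = 1.5e-13). Ifnlr1, the receptor chain for interferon lambda, went the other way, with 42.1, 33.4 and 30.1 and 268, 268 and 290.0 (log2 fold change 2.96 ± 0.18 (SE), adjusted p = 8.4e-16). For each of these 3 receptors the genotypes did not overlap, under H2O2 as well, where the log2 fold changes were -1.11, -1.17 and 3.03.

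Ifnar2 was lower in TβRII-/- PT cells too (log2 fold changes -0.76 untreated and -0.82 after H2O2), and Jak2 was higher (0.63 and 0.81). Ifngr2 rose after H2O2 in TβRII flox/flox PT cells (as a log2 fold change, 0.61 ± 0.06 (SE), adjusted p = 8.9e-10) and by less in TβRII-/- PT cells (0.22 ± 0.06 (SE), adjusted p = 0.0043), a difference that passed (interaction -0.39, adjusted p = 0.003). Irf8, a partner of other Irf factors, was called higher in untreated TβRII-/- PT cells (log2 fold change of 1.98, adjusted p = 4.6e-17). Of the 11 feedback inhibitors, 1 (9.09%) was called higher in untreated TβRII-/- PT cells, the phosphatase Ptpn6 (log2 fold change 2.45), and none lower. Of all genes, 28.0% were called (16.3% higher and 11.8% lower).

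**Figure D5:**
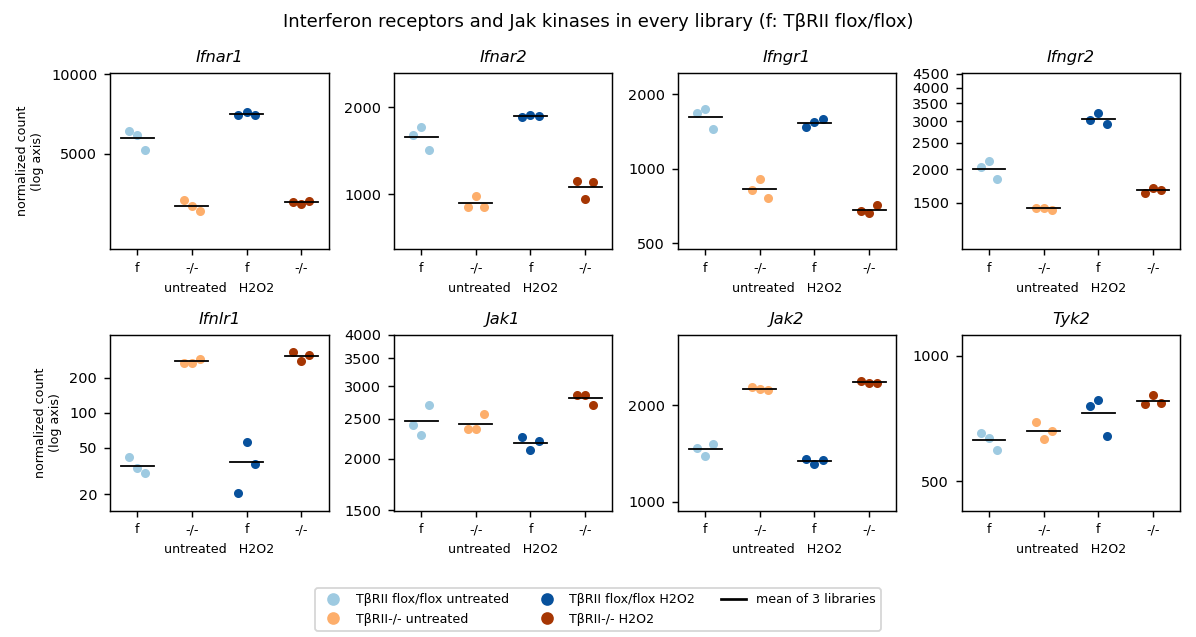
Normalized counts (log axis) of the 5 interferon-binding receptor chains and 3 Jak kinases in every library, with points for libraries and a bar for the mean of 3; f stands for TβRII flox/flox and -/- for TβRII-/-. Ifnar1, Ifnar2, Ifngr1 and Ifngr2 lay lower and Ifnlr1 and Jak2 higher in TβRII-/- PT cells.

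Genes that sense nucleic acids upstream of interferon were split in the same manner. In untreated TβRII-/- PT cells, 4 of 13 were called higher and 2 lower (28.0% of all genes were called), among them the DNA sensor Cgas (log2 fold change 1.12) and the adaptor Mavs (0.91), both higher, and Sting1, the adaptor of Cgas, lower (-2.44 ± 0.17 (SE), adjusted p = 4.7e-14). Of 18 tested further targets of interferon gamma, 6 were called higher and 6 lower, beside the same 28.0%. Gbp8 had means of 16.2 ± 2.001 and 953 ± 56.4 (SD, n = 3; log2 fold change 5.87, adjusted p = 1.9e-27), the largest difference in the interferon lists, whereas the chemokine Cxcl10 had 704 ± 74.4 and 309 ± 42.6 (-1.19, adjusted p = 4.4e-13). Of 34 tested further interferon-stimulated genes, 10 were called higher and 3 lower, again beside 28.0%, among the higher ones the Oas1a neighbours Oas1b (1.22) and Oas1c (1.95). After H2O2, 2 of the 18 further interferon-gamma targets were called higher in TβRII flox/flox and 7 in TβRII-/- PT cells, none being called lower, beside 8.24% and 8.33% of all genes called in either direction. The antigen-presentation chaperone Cd74 had the highest of those values in TβRII flox/flox (1.18) and rose by 1.63 in TβRII-/- PT cells on the log2 scale.

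The gene whose promoter drives the T antigen in all groups, H2-K1, had log2 fold changes of 0.25 between untreated genotypes, 0.01 between treated genotypes, and 0.49 and 0.26 after H2O2 in TβRII flox/flox and TβRII-/- PT cells; reads of H2-K1 may be shared with other class I genes.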

How the data were processed

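Libraries were made from poly(A) RNA with a stranded kit. The authors trimmed reads with fastp, aligned them with STAR to GRCm38.p6 (GENCODE M23) and deposited whole-number featureCounts counts per transcript, without normalization, although tests had been planned for gene counts; versions are not given in the sources used here. The paper's methods give the H2O2 dose in µM and the labels in mM, so no dose is printed; they also describe serum starvation before H2O2 and removal of interferon gamma at 37°C.

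Of 106332 transcripts, 104820 matched GENCODE M39 by identifier; the other 1512 held 1.22 to 1.28% of counts and were left out. The transcript with the highest total stood for each gene, and totals were 15870155 to 20857618 per library. Coordinates and promoters are from RefSeq (GRCm38.p6), and transcript lengths from GENCODE M39. Counts of all 12 libraries were fitted with edgeR 4.0.16 (R 4.3.3), using TMM normalization, filterByExpr and the quasi-likelihood test, over 12971 genes; normalized counts are scaled to the mean effective library of 17358925 counts. Alternatives were DESeq2 1.42.0 and its size factors, other filters, transcript sums, the compared groups alone, a replicate block and leaving out each library. On simulated data with 2-fold changes between untreated genotypes, edgeR called 189 of 198 changed genes and 2 unchanged ones, among 12753 genes tested. In the interaction it called 176 of the 198 and 10 unchanged ones. The simulation changed far fewer genes than the 28.0% called between untreated genotypes, so it does not show the error rate in that setting. No pair of libraries of a group differed by sampling noise alone. The members and lists were chosen with earlier results of these data known. Values in every library are given for the 2 most abundant members of each role and the 5 largest called changes of each comparison (for the interaction, the 5 smallest adjusted p); Ifit1, Ifit3, Isg15 and Parp14 were added after their values were seen, as were the promoters printed. Some genes of the lists are not reported here.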

Additional observations from a re-analysis of the deposited data

Results flagged for a closer look

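The test of the difference in H2O2 effect between the lines was passed by 5 of 43 tested members (11.6%), beside 10.2% of all genes. It was also passed by 16 further genes of the interferon lists. Among these were 2 of 9 receptor chains and Jak kinases, 2 of 13 genes that sense nucleic acids, 6 of 18 interferon-gamma targets and 4 of 34 further interferon-stimulated genes. Values are the log2 effect in TβRII-/- minus that in TβRII flox/flox PT cells, by the quasi-likelihood test in edgeR, Benjamini-Hochberg adjusted. Among the members the values were -1.18 for Oas3 (adjusted p = 0.0062), 0.35 for Ifit3b (0.014), 0.35 for Irgm1 (0.018), 0.33 for Trim25 (0.024) and 0.30 for Parp12 (0.03).

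Among receptors, kinases and factors the values were -0.39 for Ifngr2 (adjusted p = 0.003), 0.38 for Jak1 (0.005), 0.39 for Irf2 (0.0062) and -0.74 for Irf8 (0.00077). Jak1 fell after H2O2 in TβRII flox/flox (-0.17, adjusted p = 0.028) and rose in TβRII-/- PT cells (0.21, adjusted p = 0.0083), as Irf2 did (-0.17, adjusted p = 0.041, and 0.22, adjusted p = 0.0074). Irf8 rose in both lines, by more in TβRII flox/flox (1.11) than in TβRII-/- PT cells (0.37).

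Among interferon-gamma targets the values were 0.90 for Tgtp1 (adjusted p = 0.00028), 0.83 for Tgtp2 (0.042), 0.72 for H2-Ab1 (0.00016), 0.70 for H2-Aa (0.011), 0.45 for Cd74 (0.0027) and 0.45 for Iigp1 (0.049). Tgtp1 fell in TβRII flox/flox (-0.57) and rose in TβRII-/- PT cells (0.33); Tgtp1 and Tgtp2 are near-identical copies, so the split of reads between them is uncertain. H2-Ab1, H2-Aa and Cd74 serve presentation on MHC class II, and their level in TβRII-/- PT cells went from 339 ± 18.3 to 681 ± 46.4, from 99.3 ± 4.89 to 185 ± 26.8 and from 761 ± 34.8 to 2357 ± 162 normalized counts (SD, n = 3).

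The values of the remaining genes were -0.69 for Lgals3bp (adjusted p = 3.5e-05), -0.56 for Tlr3 (0.00047), -0.36 for Tor3a (0.011), 0.32 for Samhd1 (0.015), 0.30 for Samd9l (0.021) and -0.27 for Pnpt1 (0.041). Of the 16 genes outside the member list, 10 passed in all 18 alternatives, and Tor3a, Samhd1, Samd9l, Pnpt1, Tgtp2 and Iigp1 did not.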

How the results depend on the processing

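No member that passed reversed its direction in any alternative run. Without the fold limit, the members called numbered 25 and 31 between untreated and treated genotypes, and 17 and 29 after H2O2 in TβRII flox/flox and TβRII-/- PT cells. Summing over transcripts left 2 members in the interaction. Leaving out 1 library gave 11 to 12, 10 to 12, 5 to 6 and 7 to 11 members called in those 4 comparisons, in the same order, and 1 to 7 in the interaction. The other alternatives kept each count within 1.5 times. Of the members that passed, 18 of 25, 24 of 31, 11 of 17, 20 of 29 and, in the interaction, 1 of 5 passed in every alternative run. Same-numbered replicates deviated together in no pair of groups (correlations from -0.10 to 0.058 over 18 pairs), nor did every library correlate best with its own number, so the numbers were not taken to pair samples; with the replicate number as a block the counts were 13, 11, 6, 9 and 5. Depth limits Oas2 and Mx1, which entered no test, and Zbp1, Ifi44 and Mx2, with SE above 0.3 on the log2 scale for untreated genotypes.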
